A study of Homo sapiens with 6 samples.

Results

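The mitotic kinases and the proteins of the spindle assembly checkpoint were examined as a set of 10 genes, namely CDK1, AURKA, AURKB, PLK1, PLK4, TTK, BUB1, BUB1B, MAD2L1 and CDC20. They were chosen by name, with earlier results of these data known. Each of the 10 symbols was found once among the 19470 genes of the deposited count table. RNA was sequenced from HCCC9810, an established human cholangiocarcinoma (CCA) cell line labelled wild type, after 24 h with isolinderalactone (ILL, a plant sesquiterpene lactone) at 20 μM or with the vehicle DMSO. Each group had 3 libraries, and the groups are called ILL and control here. The labels do not say whether the libraries of a group came from separate cultures, so the p-values measure the spread between these libraries, which may be technical. A single cell line at a single dose and time was profiled.

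Entry into mitosis is driven by CDK1 bound to A-type and B-type cyclins, and the Aurora and Polo-like kinases then separate the centrosomes, build the spindle and correct faulty attachments of chromosomes. PLK4 starts the duplication of centrioles. While a kinetochore is unattached, TTK (also called MPS1) and BUB1 recruit MAD2L1 (MAD2) and BUB1B (BUBR1), which hold CDC20 in an inhibited complex, and once all are attached CDC20 activates the anaphase-promoting complex or cyclosome (APC/C), a ubiquitin ligase that marks cyclin B and securin for destruction. Most of these genes are transcribed in G2 and mitosis. Many of them have a promoter element called the cell cycle homology region (CHR), bound by the MuvB core, which represses them in resting cells as part of the DREAM complex and activates them with MYBL2 and FOXM1. CCAAT boxes, bound by the factor NF-Y, often lie near it.

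Promoter sequences were searched for the CHR and for CCAAT because the genes fell together. RefSeq windows of GRCh38.p14, from 250 bases before to 50 bases after an annotated start, were at hand for 8 of the 10 genes, in 12 windows, and those of AURKA and TTK were not used here. Only windows with a match in the 100 bases before the start are printed. The windows of MAD2L1, both starts of AURKB, the first start of CDK1 and the first and second starts of PLK4 had none there. The 100 bases before the start are printed 5′ to 3′ along the gene, with matches to the CHR (TTTGAA or TTCGAA) and to CCAAT on either strand in capitals. A match on the other strand reads TTCAAA or ATTGG. The regions are chr1:43358881-43358980 for CDC20, chr16:23678789-23678888 for PLK1, chr10:60778378-60778477 for the second start of CDK1 and chr15:40160969-40161068 for BUB1B, all on the plus strand. That of BUB1 is chr2:110678064-110678163 on the minus strand, and that of the third start of PLK4 is chr4:127881531-127881630 on the plus strand.
CDC20: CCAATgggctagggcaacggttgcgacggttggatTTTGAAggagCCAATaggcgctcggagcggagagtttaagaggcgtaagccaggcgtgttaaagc
PLK1: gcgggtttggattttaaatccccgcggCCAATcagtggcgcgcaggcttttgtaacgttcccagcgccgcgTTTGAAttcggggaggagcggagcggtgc
CDK1: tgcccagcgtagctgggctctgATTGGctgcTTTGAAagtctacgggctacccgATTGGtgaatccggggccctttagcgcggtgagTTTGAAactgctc
BUB1B: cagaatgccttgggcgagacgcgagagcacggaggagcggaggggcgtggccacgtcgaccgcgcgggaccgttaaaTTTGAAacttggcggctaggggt
BUB1: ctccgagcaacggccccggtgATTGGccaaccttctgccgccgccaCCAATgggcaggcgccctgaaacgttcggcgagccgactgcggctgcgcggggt
PLK4: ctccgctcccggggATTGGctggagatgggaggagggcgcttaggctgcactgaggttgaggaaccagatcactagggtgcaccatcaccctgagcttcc

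CDC20 holds a CHR match whose first base lies at -65 between CCAAT matches at -100 and -55, and another CHR match at -178. In PLK1 a CHR match at -29 follows a CCAAT match at -73. At its second start CDK1 has CHR matches at -69 and -13 and, past the start, at 10, and CCAAT matches at -78 and -46. Its first start has a CHR match at -161 and a CCAAT match at -150 only. BUB1B has a CHR match at -23 and no CCAAT match in its window, while BUB1 has CCAAT matches at -79 and -54 and a CHR match at 2, just past the start. In PLK4 the CCAAT match at -86 of the third start and the CHR match at 39 past the first start lie in different windows. MAD2L1 has a CHR match at 25 and a CCAAT match at -229, and AURKB has a single CCAAT match and no CHR match, at -153 from its first start and at -129 from its second. No position is numbered 0. The first transcribed base of the annotated start opens the positive count, and the base before it opens the negative count. None of the matches overlap each other, and a match is a description of letters and not a mapped binding site.

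Counted by gene over its windows, 7 of the 8 genes (87.5%) had a CHR match, 7 had a CCAAT match and 6 (75%) had both. Over all 35116 windows of the table, 16.4% held a CHR match, 34.6% a CCAAT match and 6.38% both. Among the 10482 tested genes with a window the shares were 15.5%, 42.9% and 8.43%. Of the 1181 genes with a window that were lower with ILL past the cutoffs given below, 24.4% had a CHR match and 14.99% had both, compared with 15.4% and 8.14% of the 1204 that were higher. The 8 genes are too few for their shares to be more than a description. The first 40 transcribed bases of 10 of the 12 windows were found in a GENCODE release 29 transcript of the same gene, and those of CDC20 and of the third start of PLK4 were not.

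The authors deposited unnormalized read counts and FPKM values for each library. Total counts ranged from 34282764 to 37758569 per library, and 13066 genes passed a filter on low counts, all 10 mitotic genes among them. Counts were compared with edgeR's quasi-likelihood test, with p-values adjusted by the Benjamini-Hochberg method over all tested genes, and differentially expressed genes (DEGs) were those whose adjusted p-value lay under 0.05 with a fold change above 2 or below 0.5. Of the tested genes 11.4% were DEGs lower with ILL and 12.5% were DEGs higher with ILL, whereas an adjusted p-value under 0.05 alone was reached by 36.9% in the lower and 36.2% in the higher direction. In 38% of them every ILL library lay below every control library. On the FPKM values with limma and a pseudocount of 1, 42.0% of the DEGs were higher with ILL, compared with 52.4% in the edgeR fit. All 7 biliary epithelial markers, keratins 7, 8, 18 and 19, EPCAM, SOX9 and CDH1, were above 1 CPM (counts scaled by edgeR's TMM-adjusted library size) on average, and they summed to between 9050 and 9292 CPM in control and between 9531 and 10120 CPM in ILL libraries. CDH1 was the DEG among them, higher by a log2 fold change of 2.07. At an adjusted p-value under 0.05 alone, 4 of the 7 were lower, keratin 18 (KRT18) the most at -0.82, and 3 were higher. The leukocyte markers summed to 1.51 to 2.39 CPM in control and 3.23 to 3.89 CPM in ILL libraries and the endothelial markers to 1.004 to 1.65 and 1.69 to 1.91 CPM, with PTPRC and CD3E at or near 0 in both groups. In these lists CD79A, at 0.333 ± 0.164 CPM in control and 1.45 ± 0.463 CPM with ILL, and VWF, at 0.14 ± 0.20 and 0.585 ± 0.186 CPM (SD, n = 3), were DEGs higher with ILL, with log2 fold changes of 2.10 and 2.05. The fibroblast markers summed to 12.1 to 14.2 CPM in control and 16.8 to 18.4 CPM in ILL libraries, and the hepatocyte markers to 27.3 to 31.9 and 27.2 to 42.7 CPM, with CYP3A4 at 0. In each library these 4 lists of other cell types were far below the biliary epithelial markers.

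All 10 genes were lower with ILL and passed the cutoffs for DEGs, against the 11.4% of tested genes called in that direction, and 10 of 10 had every ILL library below every control library, against 38%. The falls ranged from 3.55-fold in PLK4 to 12.7-fold in CDC20. The median log2 fold change was -2.95, where the median over all tested genes was -0.0012. Summed over the set, the mRNAs took 1451 ± 38.8 CPM in control libraries and 186.02 ± 10.8 CPM in ILL libraries (SD, n = 3), a 7.80-fold lower level. Ranked from the lowest log2 fold change among the 13066 tested genes, CDC20 was at position 20, MAD2L1 at 48, AURKB at 53 and CDK1 at 95, and PLK4, the last of the set, was at 536, within the lowest 4.10%. The 14 genes of a list of S phase genes were also all DEGs lower with ILL, from SLBP at -1.16 to TYMS at -3.33, with RRM2 at -3.07 and PCNA, the sliding clamp of DNA polymerases, at -2.41. MKI67, the Ki-67 proliferation marker, had a log2 fold change of -3.21. In RNA from a whole culture, fewer cells in G2 and mitosis and less of these mRNAs in each such cell cannot be told apart.

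**Figure D1:**
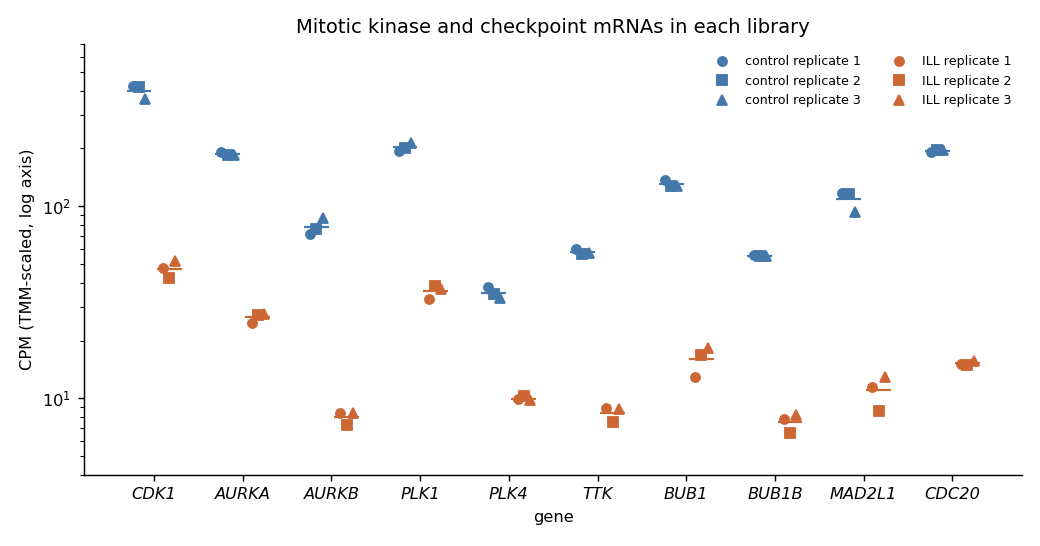
CPM of each gene in each library on a log axis, 3 control and 3 ILL libraries, with CPM scaled by edgeR's TMM method and group means as short lines. In every gene the 3 ILL points lie below the 3 control points, and the gap is narrowest in PLK4, with 33.3 to 38.04 CPM in control and 9.75 to 10.3 CPM in ILL libraries.

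CDK1, the kinase that triggers mitosis, lies on chromosome 10 of GRCh38 from 60778331 to 60794852. It was counted 16406, 14642 and 12786 times in control replicates 1 to 3 and 1664, 1457 and 1822 times in ILL replicates 1 to 3. Control replicate 3 was the lowest of its group, and the highest ILL library was still far below it. In CPM the mRNA went from 400.2 ± 33.6 to 47.3 ± 4.89 (SD, n = 3), a log2 fold change of -3.08 (95% interval -3.23 to -2.93, adjusted p = 1.9e-21, edgeR quasi-likelihood test), or 8.46-fold lower. Without control replicate 3 the log2 fold change was -3.15. Of 13 cyclins and switches that act on CDK1, 11 were lower at an adjusted p-value under 0.05 and 9 were DEGs, with a median log2 fold change of -2.37. The log2 fold change was -3.29 for cyclin A2 (CCNA2), -3.11 for cyclin B1 (CCNB1) and -3.22 for the activating phosphatase CDC25C, which went from 7.90 ± 0.494 to 0.84 ± 0.220 CPM (SD, n = 3). With limma on log2 of FPKM plus 1 the value of CDC25C was -1.85. WEE1, the kinase that places the inhibitory phosphate on CDK1, had a value of -0.10 ± 0.10 on the log2 scale (SE, adjusted p = 0.37, same edgeR test) and ARPP19, which restrains PP2A in mitosis, 0.04 (adjusted p = 0.49). The ratio of CDK1 to CCNB1 counts averaged 1.93 in control and 1.96 in ILL libraries.

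The Aurora kinases share a catalytic fold and act at different places, AURKA at centrosomes and spindle poles and AURKB at centromeres and the midzone. AURKA (chromosome 20 from 56369389 to 56392337, minus strand) had 7489, 6492 and 6527 counts in control and 859, 937 and 960 counts in ILL libraries. Its libraries were close together within each group, at 187 ± 4.73 CPM in control and 26.4 ± 1.62 CPM with ILL (SD, n = 3), and the log2 fold change was -2.83 (95% interval -2.96 to -2.70, adjusted p = 6.3e-22, edgeR quasi-likelihood test), 7.10-fold lower. AURKB (chromosome 17 from 8204733 to 8210600, minus strand) had 2778, 2688 and 3064 counts in control and 295, 251 and 292 counts in ILL libraries. It went from 78.2 ± 7.70 to 8.02 ± 0.63 CPM (SD, n = 3), a log2 fold change of -3.28 (95% interval -3.47 to -3.10, adjusted p = 2.1e-20, same edgeR test), 9.74-fold lower. The interval of AURKB does not reach that of AURKA, which is no test of the difference between them. The ratio of AURKB to AURKA counts was 0.418 ± 0.0494 in control and 0.305 ± 0.0378 in ILL libraries (SD, n = 3), with no overlap between the groups.

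The cofactors of these kinases and of PLK1 followed the same direction, with 11 of 11 genes called as DEGs lower with ILL and a median log2 fold change of -2.79. For TPX2, which activates AURKA on spindle microtubules, the log2 fold change was -2.79. It was -2.26 for BORA, which helps AURKA to activate PLK1. In the chromosomal passenger complex that holds AURKB, the log2 fold change was -3.56 for survivin (BIRC5), -3.17 for borealin (CDCA8) and -2.19 for INCENP. KIF20A, a kinesin of the central spindle, had a log2 fold change of -3.38. The smallest change of the list was -1.36 in CEP192, a scaffold of the centrosome. AURKC, the remaining Aurora kinase, was at 2.58 ± 0.43 CPM in control and 2.07 ± 0.85 CPM in ILL libraries (SD, n = 3) and did not pass the test (log2 fold change -0.31, adjusted p = 0.37, edgeR quasi-likelihood test). Reads of the Aurora paralogs can be shared where their sequences match.

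Among the Polo-like kinases, PLK1 and PLK4 both fell and PLK4 fell less. PLK1 (chromosome 16 from 23677656 to 23690367), which acts from mitotic entry to cytokinesis, had 7528, 7055 and 7530 counts in control and 1152, 1331 and 1290 counts in ILL libraries. The corresponding level was 202.5 ± 9.65 CPM in control and 36.15 ± 2.95 CPM with ILL (SD, n = 3), a log2 fold change of -2.49 (95% interval -2.62 to -2.35, adjusted p = 1.3e-20, edgeR quasi-likelihood test), 5.60-fold lower. PLK4 (chromosome 4 from 127880861 to 127899195) had 1477, 1222 and 1176 counts in control and 346, 353 and 341 counts in ILL libraries. The ILL libraries of PLK4 were close to each other, at 9.96 ± 0.26 CPM, against 35.4 ± 2.44 CPM in control (SD, n = 3). Its log2 fold change was -1.83 (95% interval -2.01 to -1.64, adjusted p = 3.3e-15, same edgeR test), 3.55-fold lower, and its interval lies apart from those of the other 9 genes. PLK2 and PLK3, which are better known as stress-responsive kinases, had log2 fold changes of -0.91 and 0.70, and PLK5 was not tested for lack of counts.

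Most of the proteins that work with PLK4 in centriole duplication were lower with ILL too. Of 8 genes, 7 were lower at an adjusted p-value under 0.05 and 6 were DEGs, with a median log2 fold change of -1.75. The log2 fold change was -2.74 for STIL, the substrate that PLK4 phosphorylates to start a new centriole, -2.40 for CEP78, a protein of the centriole wall, and -2.04 for CEP152, which recruits PLK4, and STIL had -2.15 with limma on log2 of FPKM plus 1. CEP63, the partner of CEP152, was at 13.1 ± 1.30 CPM in control and 11.6 ± 1.19 CPM with ILL (SD, n = 3), a log2 fold change of -0.17 (adjusted p = 0.21, edgeR quasi-likelihood test).

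**Figure D2:**
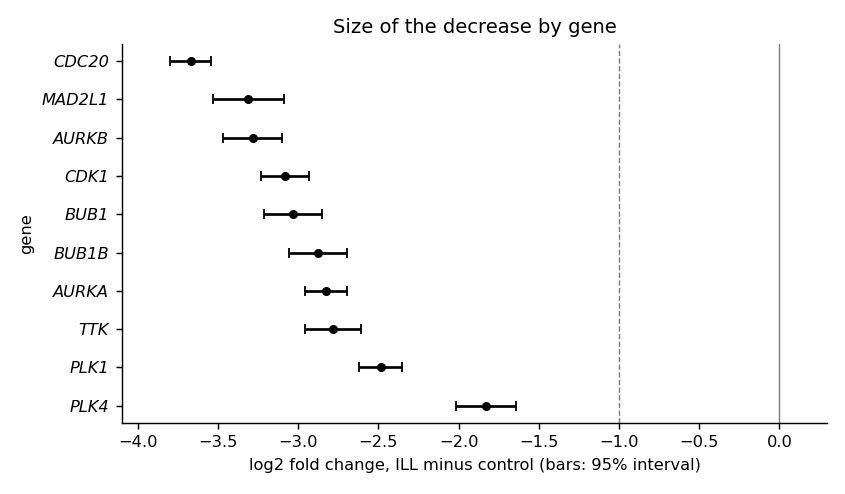
Log2 fold change of each gene, ILL minus control, with 95% intervals from the edgeR fit, where the dashed line marks the fold change cutoff of 2. All 10 intervals lie beyond the cutoff, from PLK4 at -1.83 to CDC20 at -3.67.

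Of the checkpoint kinases, TTK, the first to act at an unattached kinetochore, lies on chromosome 6 from 80003887 to 80042527 and had 2333, 1974 and 2027 counts in control and 311, 258 and 308 counts in ILL libraries. It went from 57.9 ± 2.01 to 8.40 ± 0.78 CPM (SD, n = 3), a log2 fold change of -2.78 (95% interval -2.96 to -2.61, adjusted p = 2.0e-19, edgeR quasi-likelihood test), 6.89-fold lower. BUB1 (chromosome 2 from 110637698 to 110678114, minus strand), the scaffold kinase that also marks centromeric histone H2A, had 5342, 4485 and 4488 counts in control and 451, 579 and 637 counts in ILL libraries. Replicate 1 was the highest control and the lowest ILL library. BUB1 was the kinase with the widest relative spread under ILL, at 16.0 ± 2.77 CPM against 131 ± 5.96 CPM in control (SD, n = 3). Its log2 fold change was -3.03 (95% interval -3.21 to -2.85, adjusted p = 7.5e-20, same edgeR test), 8.18-fold lower, and -2.90 without ILL replicate 1. BUB1B (chromosome 15 from 40161023 to 40221136), a pseudokinase of the inhibitory complex, had 2162, 1931 and 1943 counts in control and 272, 226 and 287 counts in ILL libraries. The control libraries of BUB1B were nearly equal at 55.2 ± 0.42 CPM, and it was at 7.51 ± 0.85 CPM with ILL (SD, n = 3), a log2 fold change of -2.88 (95% interval -3.06 to -2.70, adjusted p = 2.1e-19), 7.34-fold lower.

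MAD2L1 (chromosome 4 from 120055608 to 120067074, minus strand), the protein that closes around CDC20, had 4576, 4087 and 3305 counts in control and 400, 296 and 453 counts in ILL libraries. As with CDK1, control replicate 3 was the lowest control library, and ILL replicate 2 was the lowest of all. The level went from 109 ± 13.7 to 10.99 ± 2.21 CPM (SD, n = 3), a log2 fold change of -3.31 (95% interval -3.53 to -3.09, adjusted p = 6.9e-19, edgeR quasi-likelihood test), 9.93-fold lower, and -3.41 without control replicate 3. MAD2L1 had the widest interval of the 10 genes. Among 12 receptors and cofactors of the checkpoint, 10 were lower at an adjusted p-value under 0.05, 9 of them as DEGs, and 1 was higher, with a median log2 fold change of -2.10. The log2 fold change was -3.21 for KNL1, the kinetochore scaffold that binds BUB1 and BUB1B, -3.14 for NUF2, a subunit of the NDC80 complex, -2.66 for TRIP13, the ATPase that reopens MAD2, and -1.18 for BUB3, the partner of both BUB proteins. With limma on log2 of FPKM plus 1, KNL1 had -2.28. MAD1L1, the partner that brings MAD2 to kinetochores, was the gene that rose, from 50.7 ± 3.38 to 63.9 ± 1.51 CPM (SD, n = 3), a log2 fold change of 0.33 (adjusted p = 6.4e-05, same edgeR test), short of the fold change cutoff.

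CDC20 (chromosome 1 from 43358955 to 43363203) had 7429, 6918 and 6930 counts in control and 531, 515 and 550 counts in ILL libraries. Both groups were tight, at 195 ± 2.98 CPM in control and 15.3 ± 0.40 CPM with ILL (SD, n = 3). Its log2 fold change of -3.67 (95% interval -3.80 to -3.54, adjusted p = 9.5e-24, edgeR quasi-likelihood test) was the lowest of the set, 12.7-fold lower. Its interval stops just short of that of MAD2L1, the next in order, which begins at -3.53. This is no test of the difference between them, and the ratio of their counts overlapped between the groups (exact permutation p = 0.3).

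CDC20 acts on the core of the APC/C, which contained no DEG. Of its 14 subunits, 11 were lower and 2 higher at an adjusted p-value under 0.05, with a median log2 fold change of -0.38. The extremes were -0.95 in ANAPC1 and -0.70 in CDC26 at the lower end and 0.23 in both ANAPC16 and CDC16 at the higher end. ANAPC1 had a log2 fold change of -1.06 without ILL replicate 3, which took it past the cutoff. FZR1, the other activator of the APC/C, was at 54.6 ± 5.30 CPM in control and 59.4 ± 3.59 CPM with ILL (SD, n = 3), a log2 fold change of 0.12 (adjusted p = 0.13, edgeR quasi-likelihood test), and without control replicate 3 it was 0.20 (adjusted p = 0.018). Among 8 activators, inhibitors, E2 enzymes and substrates, 6 were DEGs lower with ILL, and the median was -2.90. The log2 fold change was -3.13 for UBE2C, the E2 enzyme that starts ubiquitin chains, -3.11 for securin (PTTG1), -3.07 for separase (ESPL1), which had -2.35 in the limma fit with a pseudocount of 1, and -2.95 for the inhibitor EMI1 (FBXO5), whereas UBE2D1, a general E2 enzyme, rose by 0.69, from 15.2 ± 0.209 to 24.6 ± 0.692 CPM (SD, n = 3).

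The phosphatases that reverse mitotic phosphorylation showed no common direction. Of 17 genes of PP1, PP2A, PP6 and CDC14, 7 were higher and 5 lower at an adjusted p-value under 0.05, and the median log2 fold change was 0.057. It was -0.012 when libraries were scaled by total count only. PPP2R5B, a regulatory B56 subunit of PP2A, was the only DEG higher with ILL, from 18.4 ± 1.81 to 73.5 ± 3.93 CPM (SD, n = 3), a log2 fold change of 1.995 (adjusted p = 2.3e-17, edgeR quasi-likelihood test), and PPP2R5A, another B56 subunit, rose by 0.70. The only DEG lower with ILL was PPP1CC, a catalytic subunit of PP1, which had a log2 fold change of -1.07, and of -0.98 without ILL replicate 2, short of the cutoff, and PPP2R1B, a scaffold subunit of PP2A, fell by 0.61.

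**Figure D3:**
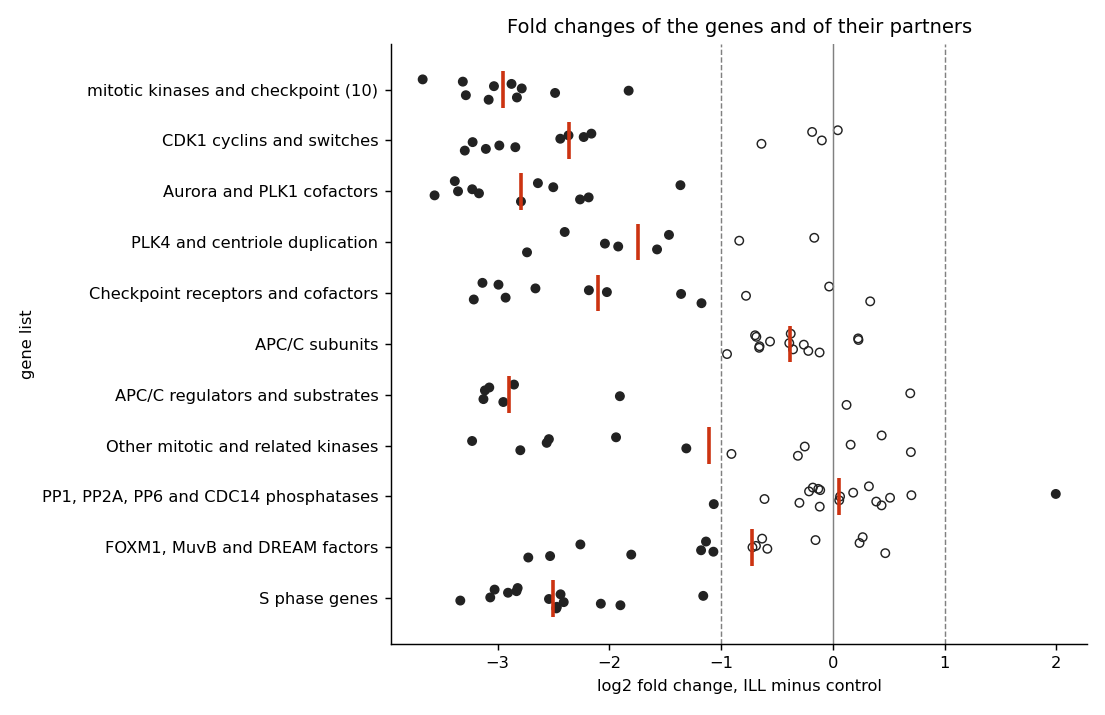
Log2 fold change of every tested gene of the set and of the 10 lists of partners, 1 point per gene and 1 row per list, with DEGs filled, other genes open, the median of each list as a red bar and the fold change cutoffs as dashed lines. The 10 mitotic genes lie between -3.67 and -1.83, the S phase genes and the Aurora and PLK1 cofactors all lie below -1, and the APC/C subunits and the phosphatases lie around their medians of -0.38 and 0.057.

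Levels of different genes were compared per length with the deposited FPKM values, in which counts are scaled by gene length and by the total of the library. In control libraries CDC20 and CDK1 were the most abundant, at 121 ± 1.54 and 120 ± 10.6 FPKM (SD, n = 3), and their libraries overlapped. PLK1 followed at 96.0, AURKA at 65.6, AURKB at 54.7, BUB1 at 35.6, MAD2L1 at 21.4, TTK at 16.7, BUB1B at 15.4 and PLK4 at 8.70 FPKM, with no overlap between neighbours in this order. With ILL the order changed, and PLK1 was first at 16.3 ± 1.24 FPKM, ahead of CDK1 at 13.6 ± 1.44 FPKM (SD, n = 3), with no overlap between them. CDC20 came after them at 9.05 FPKM and overlapped AURKA at 8.81, and AURKB at 5.35 and BUB1 at 4.14 FPKM came next. PLK4 at 2.34, TTK at 2.31, MAD2L1 at 2.05 and BUB1B at 2.0 FPKM each overlapped the next in order. Between the most and the least abundant gene the ratio was 13.9 in control and 8.17 in ILL libraries. The length behind the FPKM was 5227 bases for MAD2L1 and 1463 bases for AURKB, so an order per length depends on the transcript models used.

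**Figure D4:**
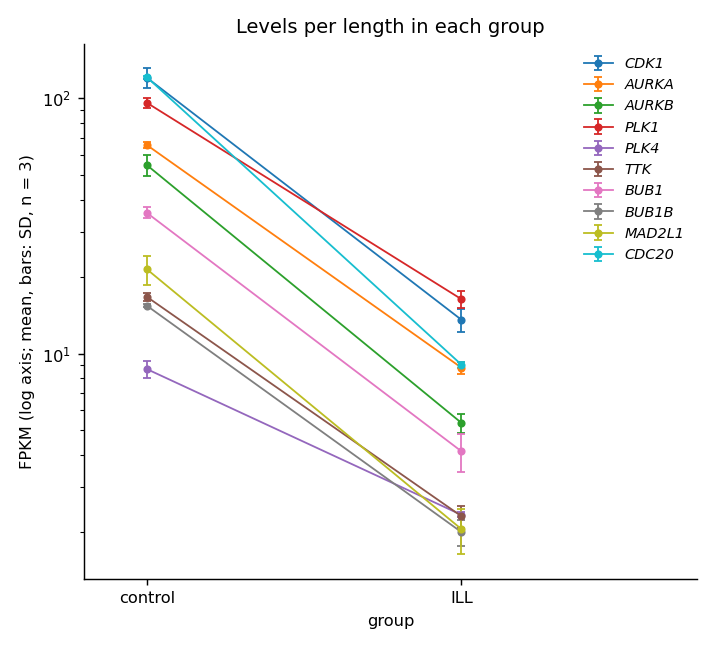
Mean FPKM of each gene in the control and ILL groups on a log axis, with SD bars (n = 3) and a line for each gene. The lines of CDC20 and MAD2L1 are among the steepest and that of PLK4, from 8.70 to 2.34 FPKM, is the flattest, so that PLK4 moves from the last to the seventh place.

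Ratios of counts within a library do not depend on how libraries are scaled, and 6 pairs of related genes were compared in this way. With 3 libraries against 3 the exact two-sided permutation test cannot give a p below 0.1, so no pair could pass 0.05. The ratio of PLK4 to PLK1 counts was 0.196, 0.173 and 0.156 in control and 0.3003, 0.265 and 0.264 in ILL libraries. This ratio was higher in every ILL library, a difference of 0.66 on the log2 scale (exact permutation p = 0.1, adjusted p = 0.30 over the 6 pairs). The ratio of AURKB to AURKA counts, given above, differed by -0.46 on the log2 scale, also with no overlap (exact permutation p = 0.1, adjusted p = 0.30). In the other 4 pairs the groups overlapped. The log2 ratio of MAD2L1 to CDC20 counts differed by 0.35 (exact permutation p = 0.3), that of TTK to BUB1 by 0.26 (p = 0.2), that of BUB1B to BUB1 by 0.16 (p = 0.5) and that of CDK1 to CCNB1 by 0.03 (p = 0.9). Without ILL replicate 1, the library with the lowest BUB1 count, the difference of BUB1B to BUB1 was -0.011, and the difference of CDK1 to CCNB1 was -0.05 without control replicate 3 and -0.03 without ILL replicate 3.

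The factors that act on CHR and CCAAT promoters were lower with ILL in 12 of 15 genes at an adjusted p-value under 0.05 and higher in 3, and 7 of them were DEGs, all lower, with a median log2 fold change of -0.72. FOXM1 and MYBL2, the activators of G2 and mitotic genes, had log2 fold changes of -2.73 and -2.53 and went from 359.7 ± 12.1 to 54.4 ± 6.45 CPM and from 554 ± 8.25 to 95.9 ± 5.25 CPM (SD, n = 3). The MuvB subunits LIN9, LIN54 and LIN52 had log2 fold changes of -1.80, -1.18 and -1.07. LIN37, another MuvB subunit, had a value of 0.47 ± 0.18 on the log2 scale (SE, adjusted p = 0.025, edgeR quasi-likelihood test), and it did not pass the test with scaling by total count only (adjusted p = 0.056), without control replicate 3 (0.18) or without ILL replicate 3 (0.14). NFYC, a subunit of NF-Y, rose by 0.27 and did not pass without control replicate 2 (log2 fold change 0.19, adjusted p = 0.058). The other NF-Y subunits were lower on the log2 scale, NFYB by 0.63 (adjusted p = 2.0e-07, same edgeR test) and NFYA by 0.16 (adjusted p = 0.045). Of the DREAM proteins RBL1 and RBL2, RBL1 was a DEG with a log2 fold change of -2.26 (adjusted p = 5.7e-18, same edgeR test). RBL2 was higher, at 0.24 (adjusted p = 0.0088), with groups that overlapped. Among 12 tested kinases related to the set, 6 were DEGs, all lower, with a median of -1.11. The log2 fold change was -3.23 for PBK and -2.80 for NEK2, a kinase of centrosome separation, and CDK7, the kinase that activates CDK1, rose by 0.44.

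Some of the genes overlap others in GENCODE release 29, and whether the counting used strand is not given in the sources used here. PLK1 overlaps ERN2 and AC008870.3 on the opposite strand, and ERN2 had 32, 48 and 31 counts in control and 181, 173 and 94 counts in ILL libraries, opposite in direction to PLK1 and fewer than the counts of PLK1 in each library. BUB1B shares exons with the read-through gene BUB1B-PAK6, which had 154, 205 and 135 counts in control and 165, 233 and 148 counts in ILL libraries (log2 fold change 0.21, adjusted p = 0.38, edgeR quasi-likelihood test). The ILL counts of the read-through gene are of the size of those of BUB1B, so the BUB1B level with ILL depends on how shared reads were assigned. MAD2L1 overlaps AC108866.1 on the opposite strand and PLK4 overlaps RNU6-583P on its own strand. CDK1, AURKA, AURKB, TTK, BUB1 and CDC20 overlap no annotated gene.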

How the data were processed

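The authors deposited unnormalized counts of reads, listed by gene symbol, and FPKM values for 3 control and 3 ILL libraries, without pooling. GRCh38 and DESeq2 are named in the submitters' processing notes, and the aligner, the counting program and the annotation are not given in the sources used here. Counts were filtered with filterByExpr, scaled by TMM and tested with edgeR 4.0.16 (R 4.3.3), group as the only term, with Benjamini-Hochberg adjustment over 13066 genes. The biological coefficient of variation was 0.0717, total counts were at least 34282764 per library, and counting error and the spread between replicates both enter the precision of these genes. Standard errors were derived from the quasi-likelihood F statistic. The fit was tested on simulated counts, with changes set only in well-counted genes and a single dispersion for all genes, which is simpler than these data. The 10 genes, the partner and marker lists and the alternatives were chosen with earlier results of these data known. Named partners are a fixed set of binding partners and, from each list, the 2 highest and the 2 lowest log2 fold changes among genes with an adjusted p-value under 0.05, a mean not under 1 CPM and groups that do not overlap. CEP192, CEP63, ARPP19 and SLBP were named as the extremes of their lists, after their values were seen. LIN52, LIN54, NFYA, NFYB, RBL1 and RBL2 were also named after their values were seen. Alternatives were scaling by library size only or by the size factors of DESeq2, omission of the filter, a minimum of 10 counts in each library, DESeq2 1.42.0, a replicate block, each library left out, no fold change cutoff, and limma 3.58.1 on log2 of FPKM plus 1 or plus 0.1 where the mean FPKM was at least 1. Gene positions are from GENCODE release 29. Motifs were searched on both strands of the RefSeq windows.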

Additional observations from a re-analysis of the deposited data

How the results depend on the processing

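The 10 mitotic genes kept their direction and all passed the cutoffs in all 14 alternatives in which each was fitted, from -3.74 to -1.54 on the log2 scale over the fits with all libraries, and 649 of 654 values of the 47 named partners kept their direction and their side of an adjusted p-value of 0.05. The labels do not say whether same-numbered libraries were made together. Their deviations from the group means had correlations of 0.011, -0.022 and -0.018, which show no shared effect but cannot decide this. With the replicate number as a block, 10 of the 10 genes passed, the median was -2.96, and 1484 genes were lower and 1627 higher, and the block changed no call of the 10 genes or of the named partners. With library size only, the medians were -2.43 for the CDK1 list, -1.82 for the PLK4 list, -0.45 for APC/C subunits (with 1 lower DEG), -2.97 for APC/C regulators, -0.012 for phosphatases and -0.79 for FOXM1 and MuvB factors. The median of the other kinases was -0.91 without a filter and -0.90 with DESeq2's Wald test. With limma on log2 of FPKM plus 1 there were 923 lower and 668 higher DEGs, and the medians were -2.80 for the 10 genes, -2.28 for the CDK1 list, -2.18 for Aurora and PLK1 cofactors, -1.08 for the PLK4 list (3 lower DEGs), -1.77 for checkpoint cofactors, -0.43 for APC/C subunits, -2.44 for APC/C regulators, -1.03 for other kinases and -0.0069 for phosphatases. With a pseudocount of 0.1 there were 909 higher DEGs, the median of all genes was -0.10, and the medians were -2.43, -1.54, -0.45 (1 lower DEG), -0.0069 and -0.77 for the CDK1, PLK4, APC/C subunit, phosphatase and FOXM1 lists. Pseudocounts shrink differences of low genes by construction. The minimum on mean FPKM also left CEP152 and CEP78, both DEGs in the edgeR fit, out of the PLK4 list in the limma fits. Other causes were not tested. Without the fold change cutoff, 4821 genes were lower and 4726 higher. Leaving out 1 library gave medians of -2.98 to -2.85 for APC/C regulators and -0.44 to -0.36 for APC/C subunits, with 0 to 1 lower DEG among the subunits and 0 to 1 among the phosphatases, and differences of -0.050 to 0.070 for CDK1 to CCNB1 and -0.011 to 0.30 for BUB1B to BUB1. Low ILL counts, 226 in BUB1B at the least, did not bring any of the 10 genes near the filter.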
